A study of Homo sapiens with 4 samples.

Results

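FNDC3B is the gene whose exons form BCUC-1 (hsa_circ_0001361), the circular RNA overexpressed in this study, and it is described here with its paralog FNDC3A and 6 genes for RNA-binding proteins that promote or oppose the formation of circular RNA, QKI, MBNL1, MBNL2, DHX9, ADAR and HNRNPL. The 8 genes were chosen by name, with earlier results of these data known, and each had 1 row among the 32973 genes of the deposited table. RNA was sequenced from 2 human bladder cancer cell lines, T24T, a variant of the T24 line, and UMUC3, each stably transfected with an empty vector or with a BCUC-1 overexpression plasmid. All cells were grown in RPMI-1640 medium with serum. With 1 library for each plasmid in each line (4 in all), a comparison within a line is one of 2 libraries and has no replicate check. Whether the transfected cells were pools or single clones is not given in the sources used here.

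A circular RNA arises when the spliceosome joins the end of an exon back to the start of the same or an earlier exon. Back-splicing is favoured when the introns on both sides are brought together, either by inverted repeats that pair or by proteins that bind both introns. QKI, a STAR-family protein, MBNL1, a muscleblind protein that binds its own transcript, and HNRNPL, which binds CA-rich RNA, are known to promote circles in this way or to change their output. ADAR, which edits adenosine to inosine in double-stranded RNA, and DHX9, a helicase that unwinds paired repeats, are known to oppose them. FNDC3B and FNDC3A encode membrane proteins with fibronectin type III domains, and FNDC3B was first studied as a factor in fat cell differentiation.

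The 250 bases before the RefSeq start (GRCh38.p14) are shown for the host gene and its paralog, and for ADAR and DHX9, the 2 genes of chromosome 1, both higher in T24T below. Capitals mark the GC box GGGCGG on either strand, a binding motif of SP1, and each sequence runs 5′ to 3′ on the strand of its gene.
FNDC3B (chr3:172039328-172039577, plus strand): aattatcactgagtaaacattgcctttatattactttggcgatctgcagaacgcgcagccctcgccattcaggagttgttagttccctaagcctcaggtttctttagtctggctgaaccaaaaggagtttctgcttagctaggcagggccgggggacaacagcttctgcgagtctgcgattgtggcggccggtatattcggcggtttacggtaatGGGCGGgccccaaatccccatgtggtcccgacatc
FNDC3A (chr13:48975662-48975911, plus strand): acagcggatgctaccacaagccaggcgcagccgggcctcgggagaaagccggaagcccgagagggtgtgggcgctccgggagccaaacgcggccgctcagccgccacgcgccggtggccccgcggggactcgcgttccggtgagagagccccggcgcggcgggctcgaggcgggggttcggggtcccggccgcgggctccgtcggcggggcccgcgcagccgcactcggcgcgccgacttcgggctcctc
ADAR (chr1:154627998-154628247, minus strand): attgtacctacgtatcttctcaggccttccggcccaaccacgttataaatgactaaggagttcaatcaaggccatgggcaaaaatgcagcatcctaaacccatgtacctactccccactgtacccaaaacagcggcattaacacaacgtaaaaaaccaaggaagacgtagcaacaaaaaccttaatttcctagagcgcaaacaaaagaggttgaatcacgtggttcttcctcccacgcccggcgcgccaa
DHX9 (chr1:182839097-182839346, plus strand): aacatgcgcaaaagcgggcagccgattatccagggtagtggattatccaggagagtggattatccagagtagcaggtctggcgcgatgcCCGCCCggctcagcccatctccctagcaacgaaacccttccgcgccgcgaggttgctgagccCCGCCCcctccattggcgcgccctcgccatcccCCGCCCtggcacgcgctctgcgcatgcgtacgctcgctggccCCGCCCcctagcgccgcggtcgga
The paralogs differed in composition, with 52.4% GC and 14 CpG dinucleotides at FNDC3B and 78.4% GC and 41 CpG at FNDC3A, against medians of 58.0% and 11 over 35116 RefSeq windows of this length. ADAR had 47.2% GC and 12 CpG, and DHX9 67.6% and 28. DHX9 had 4 GC boxes, FNDC3B 1, and ADAR and FNDC3A 0, and 42.6% of all windows held at least 1. The letters TATAAA, searched on both strands and at any place in the window, occurred at FNDC3B and at ADAR and in 10.7% of all windows. Both matches lay toward the end of the window far from the start, and that of FNDC3B was on the opposite strand. Whether either acts as a promoter element was not tested. The RefSeq start lay 50, 0 and 22 bases before the first listed exon base of FNDC3B, FNDC3A and DHX9 and 2 bases within that of ADAR. No sequence is shown for MBNL1 and MBNL2, whose RefSeq starts lay 25101 bases inside and 79600 bases before the first listed base, because those windows do not flank the counted exons.

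The libraries held between 22730112 and 26497894 reads assigned to genes. Values are in RPKM, reads per kilobase of exon and per 1000000 assigned reads, and read numbers were recovered from them exactly. Intervals are exact 95% intervals of the counting error alone, and without molecular identifiers reads do not count independent molecules. Of 10 urothelial markers, 7 were under 1 RPKM in all 4 libraries, including the uroplakins UPK3A (0.0 to 0.0419) and UPK3B, and the list summed to 2.97 to 5.60 RPKM, so differentiated urothelial markers were largely absent. The epithelial keratins KRT8 (13.0 to 146) and KRT18 (39.9 to 88.2) were present, whereas KRT19, another epithelial keratin, had at most 0.0363 RPKM. Of 7 leukocyte and endothelial markers 5 were analysed, none of which reached 1 RPKM, with a sum of at most 0.182 RPKM.

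FNDC3B was a gene of middling level that varied little. T24T had 5.68 RPKM with vector and 5.40 with BCUC-1, and UMUC3 had 6.27 with vector and 6.19 with BCUC-1. The UMUC3 libraries were both above the T24T libraries, and 52.8% of the 15415 genes tested had a lower mean level. FNDC3B spans chromosome 3 from 172039628 to 172401665 on the plus strand of GRCh38, with 13270 exonic bases that overlap no exon of another listed gene.

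FNDC3A, the paralog on chromosome 13 (48975912 to 49209779, plus strand), stood higher per length in every library. FNDC3A levels in T24T were 10.6 RPKM (vector) and 11.0 (BCUC-1), and those in UMUC3 13.8 and 12.9. FNDC3A shares 156 exonic bases with RP11-156K23.3, a gene on the opposite strand with 27 to 49 reads, against 1940 to 2806 for FNDC3A. The ratio of FNDC3B to FNDC3A RPKM was 0.534 (vector) and 0.489 (BCUC-1) for T24T and 0.456 (vector) and 0.479 (BCUC-1) for UMUC3. The groups of the lines did not overlap for either gene. The share of all genes without such an overlap was not counted. By limma (below), 70.4% of 15415 genes differed between the lines, and FNDC3B did not pass.

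Of those of the 8 genes that are known to promote circles, HNRNPL was the most abundant and the steadiest. It had 50.7 and 50.8 RPKM in T24T vector and BCUC-1 and 52.1 and 50.1 in UMUC3, so the lines overlapped. HNRNPL lies on chromosome 19 from 38836388 to 38852347 on the minus strand. It shares 561 exonic bases with AC104534.3, a listed gene of 963 bases on the same strand with 2441 to 3160 reads, so part of those reads may belong to both. Reads of the pseudogene HNRNPLP2 were few (18 to 24), as were those of DHX9P1 (1 to 3).

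MBNL1 was the next by level of these promoting genes and was higher in UMUC3. Its levels were 22.7 RPKM (vector) and 23.0 (BCUC-1) in T24T, and 34.3 (vector) and 28.9 (BCUC-1) in UMUC3. The UMUC3 vector library was the highest of the 4. MBNL1 lies on chromosome 3 (152243828 to 152465780, plus strand) and shares 1140 exonic bases with its antisense gene MBNL1-AS1, which had 109 to 140 reads against 5365 to 9082 for MBNL1. MBNL1 also shares 415 exonic bases with RP11-362A9.3, on the opposite strand, which had 7 to 29 reads. Whether the counting used strand is not given in the sources used here, so reads of the shared bases cannot be assigned.

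QKI, on chromosome 6 (163414000 to 163578596, plus strand), followed the same order of the lines. Its T24T levels were 9.43 RPKM (vector) and 9.33 (BCUC-1), against 12.4 and 11.1 in UMUC3. Again the UMUC3 libraries were both above those of T24T, an order whose share over all genes was not counted. The ratio of QKI to MBNL1 RPKM stayed between 0.362 and 0.416.

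MBNL2, the muscleblind paralog on chromosome 13 (97221434 to 97394120, plus strand), differed most between the lines. It stood at 5.97 (5.54 to 6.43) RPKM in T24T vector and 5.70 (5.27 to 6.15) in T24T BCUC-1. In UMUC3 it was near the floor of the test, at 0.938 (0.779 to 1.12) RPKM with vector and 1.04 (0.859 to 1.25) with BCUC-1, from 122 and 116 reads. The T24T level was thus 6.37 times that of UMUC3 in the vector libraries (5.24 to 7.78) and 5.48 times in the BCUC-1 libraries (4.49 to 6.74), in reads per 1000000.

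The make-up of the muscleblind family differed accordingly. MBNL2 made up 20.8% and 19.8% of the summed MBNL1, MBNL2 and MBNL3 RPKM in T24T vector and BCUC-1, and 2.63% and 3.44% in UMUC3 vector and BCUC-1. MBNL3, the third member, held at most 1.29%, from 16 to 21 reads in the T24T libraries and 91 to 149 in those of UMUC3. The summed level was 28.7 and 28.8 RPKM in T24T and 35.7 and 30.3 in UMUC3, so the lines differed less in the sum than in its make-up. Levels per length rest on the exonic length of each gene in the table (9989 bases for MBNL1, 4908 for MBNL2), whatever isoforms the cells used.

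**Figure D1:**
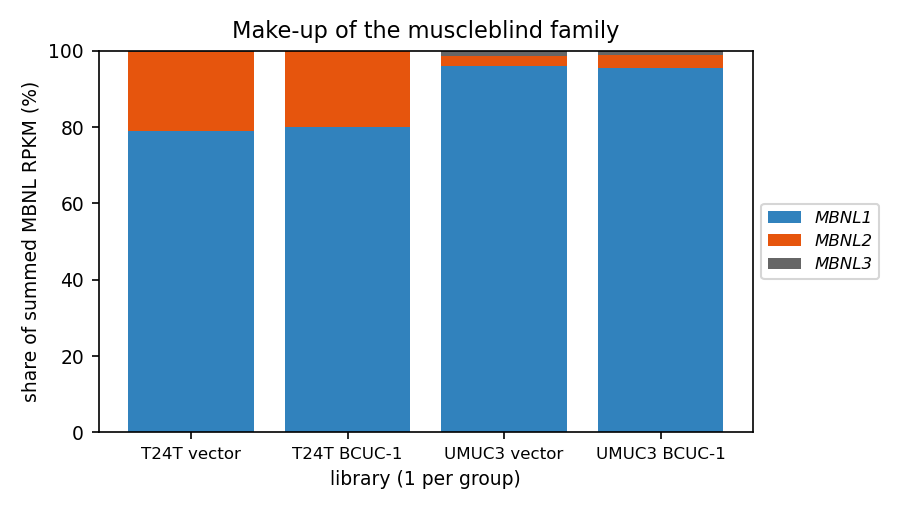
Share of MBNL1, MBNL2 and MBNL3 in their summed RPKM (vertical axis, percent) in each of the 4 libraries (horizontal axis, 1 library per group). MBNL2 takes 19.8% to 20.8% of the bar in T24T and 2.63% to 3.44% in UMUC3.

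The 2 of the 8 genes that are known to oppose circles were both higher in T24T. DHX9, on chromosome 1 (182839369 to 182887751, plus strand), was the most abundant of the 8 genes, with 87.5 and 89.6 RPKM in T24T vector and BCUC-1 and 73.4 and 73.6 in UMUC3. ADAR, also on chromosome 1 (154582062 to 154627999, minus strand), had T24T levels of 33.4 RPKM (vector) and 33.9 (BCUC-1), against 18.6 and 20.5 in UMUC3. The lines did not overlap for either gene, and the share of all genes for which this holds was not counted. By limma (below), 70.4% of 15415 genes differed between the lines. With the libraries scaled to equal medians, DHX9 was not called (log2 difference 0.12, limma adjusted p 0.220). DHX9 was 2.62 and 2.64 times ADAR in T24T and 3.95 and 3.59 times in UMUC3. ADARB1, the other active deaminase gene, had 1.46 to 1.73 RPKM, so that ADAR was 12.8 to 22.5 times as high per length.

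**Figure D2:**
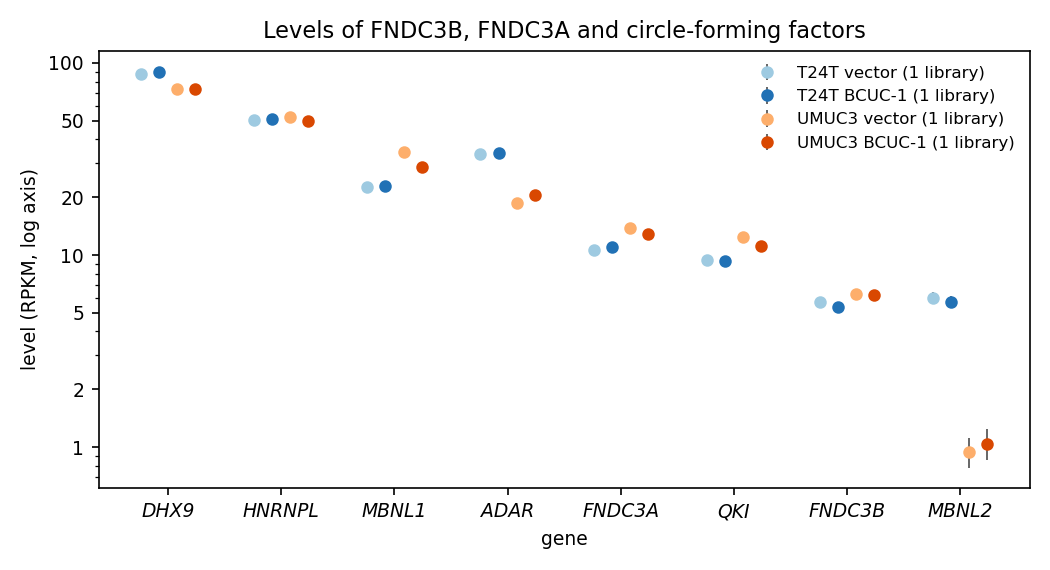
Level of each gene (horizontal axis, by mean level) in RPKM on a log axis, with 1 point per library and bars for the exact 95% counting interval, most of which are smaller than the points. DHX9 is highest at 73.4 to 89.6 RPKM, and MBNL2 shows the widest gap between the lines.

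The order of the levels was the same in both libraries of a line. In T24T it ran DHX9, HNRNPL, ADAR, MBNL1, FNDC3A, QKI, MBNL2 and FNDC3B. The last 2 were not separated by counting error in either library. FNDC3B had 5.68 RPKM (5.42 to 5.95) and MBNL2 5.97 (5.54 to 6.43) with vector, and with BCUC-1 they had 5.40 (5.14 to 5.66) and 5.70 (5.27 to 6.15). In UMUC3, MBNL1 stood above ADAR and FNDC3B above MBNL2, and the other places were the same.

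The study compared BCUC-1 with vector to screen for genes downstream of the circle, and the first comparison does so for its host gene and these factors. No member differed 2-fold in either line. In T24T 0 of 8 reached a log2(RPKM + 1) difference of 1, where 0.602% of 14946 genes did, and in UMUC3 0 of 8, where 0.753% of 14347 did. The T24T ratios of BCUC-1 to vector in reads per 1000000 ran from 0.949 (FNDC3B) to 1.04 (FNDC3A), and those of UMUC3 from 0.842 (MBNL1) to 1.11 (MBNL2).

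For FNDC3B the counting intervals describe the net change in its reads. Its ratio was 0.949 in T24T (0.888 to 1.02), from 1786 and 1689 reads, and 0.987 in UMUC3 (0.928 to 1.05), from 2206 and 1868 reads. At the depth of the vector library, the upper ends of these intervals correspond to 27.1 more FNDC3B reads with BCUC-1 in T24T and 111 more in UMUC3. They hold counting error alone, not other differences between libraries. Added circular reads offset by fewer linear reads would not show. A gene-level value does not separate linear from circular molecules, and the level of the circle itself was not analysed here. The series is titled as mRNA sequencing, and how RNA was selected is not given in the sources used here. Among RNAs without a poly(A) tail, the small nuclear RNA RN7SK had 4.10 to 6.16 RPKM, near the 5.40 to 6.27 of FNDC3B. The RNase P RNA RPPH1 had 2.76 to 5.10 and the histone gene HIST1H4C 0.0971 to 0.174, against 332 to 470 for ACTB. Whether circular molecules entered the libraries was not tested.

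In T24T all 8 counting intervals included 1. Of the 7683 genes whose 2 libraries held 1000 reads or more together, 21.0% had an interval that excluded it, 8.72% above and 12.3% below 1. The values closest to a difference were DHX9 (ratio 1.02, 0.998 to 1.05) and FNDC3B. These 2 libraries thus differed at the 8 genes by no more than counting error, which can still hide differences of the width of these intervals.

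The UMUC3 libraries differed more, in members and in other genes alike. Of the 7 members with at least 1000 reads, 5 had an interval that excluded 1, or 71.4%, beside 51.9% of 7472 genes. Of the 5, 1 was above 1 and 4 below, beside 28.9% and 23.0% of these genes. MBNL1 was lower with BCUC-1 (9082 and 6558 reads, ratio 0.842, 0.815 to 0.869), QKI had 0.895 (0.860 to 0.931), FNDC3A 0.940 (0.889 to 0.994) and HNRNPL 0.962 (0.933 to 0.991). ADAR was higher, at 1.10 (1.05 to 1.15), and DHX9 stood at 1.00 (0.975 to 1.03). MBNL1 was toward the low end of the 7472 genes, 4.08% of which had a lower log2 difference, whereas 12.8% lay below QKI.

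The UMUC3 differences of all genes moved with base composition. MBNL1, QKI and FNDC3A have GC contents of 39.9%, 38.7% and 38.9%, and genes of their GC range had a median log2 difference of -0.066, -0.082 and -0.082. With that trend removed, the log2 difference of MBNL1 went from -0.24 to -0.17, that of QKI from -0.15 to -0.065 and that of FNDC3A from -0.083 to -0.00042. ADAR, at 49.3% GC, went from 0.13 to 0.096. HNRNPL, at 49.8% GC, went from -0.055 to -0.10. MBNL2, at 36.8% GC the lowest of the 8 and with a median of -0.11 in its GC range, went from 0.074 to 0.18. The values of FNDC3B were -0.016 and 0.0085.

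**Figure D3:**
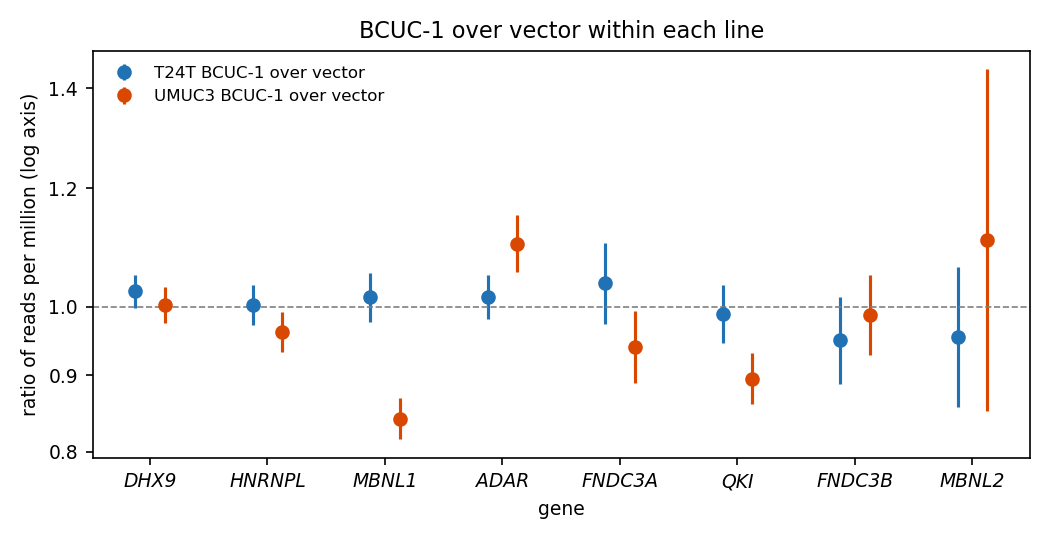
Ratio of BCUC-1 to vector in reads per 1000000 (vertical log axis) for each gene in T24T (blue) and UMUC3 (orange), 1 library per group, with exact 95% counting intervals. All 8 T24T intervals include 1, and MBNL1 in UMUC3 is lowest at 0.842.

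Over both lines, the effect of BCUC-1 was tested with limma, with the line as a block. It called 0 of 8 members and 0 of 15415 genes (0.0%), and the smallest Benjamini-Hochberg adjusted p was 0.104 over all genes and 0.998 among the members. Without adjustment 0 members and 652 genes (4.23%) had a p under 0.05. With limma-voom on the recovered reads the calls were 0 of 8 members and 13 genes. The log2 difference of BCUC-1 and vector was -0.040 at FNDC3B (95% interval -0.25 to 0.17), -0.11 at MBNL1 (-0.31 to 0.091), -0.081 at QKI (-0.28 to 0.12) and 0.077 at ADAR (-0.092 to 0.25). A change as large as these bounds would not have been detected. MBNL1 was 0.020 in T24T and -0.24 in UMUC3. The fit left 1 residual degree of freedom, which holds how far the BCUC-1 difference of a gene itself differed between the lines. limma pools this variance with a trend over all tested genes. Nothing in the labels says that libraries came from separate cultures, so the p-values of this fit do not measure the spread between replicate cultures.

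The second comparison, T24T against UMUC3, used the line term of the same fit, with 2 libraries per line. The libraries of a line carry different plasmids and are not replicates of 1 condition. By limma's adjusted p, 6 of 8 members differed, 3 higher and 3 lower in T24T. The lines differed at most genes, with 70.4% of 15415 called, so the members' share of 75.0% is near the background. Their median absolute log2 difference was 0.29, beside 0.45 over all tested genes. Cell type markers also differed between the lines: KRT8 had 133 and 146 RPKM in T24T against 13.0 and 13.2 in UMUC3, and VIM, a mesenchymal filament gene, 82.9 and 87.0 against 234 and 267. The mesenchymal cadherin gene CDH2 was on the other side, with 6.64 RPKM in both T24T libraries and 5.50 and 5.31 in UMUC3. CDH1 and EPCAM were at most 0.219 RPKM in all 4 libraries, and the part of these differences in the members' values was not tested.

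Higher in T24T were MBNL2, ADAR and DHX9. MBNL2 had a log2 difference of 1.78 on log2(RPKM + 1) (SE 0.10, limma adjusted p 1.44e-05), which understates the change of a low gene, and 5.43% of tested genes lay as far from 0. ADAR had 0.76 (SE 0.071, limma adjusted p 0.000119) and DHX9 0.26 (SE 0.062, limma adjusted p 0.00781). ADAR and DHX9 lay within the bulk of the genes, 28.5% and 68.8% of which lay as far from 0.

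Lower in T24T were MBNL1, QKI and FNDC3A. The log2 differences were -0.45 (SE 0.084, limma adjusted p 0.00298) for MBNL1, -0.30 (SE 0.082, limma adjusted p 0.0156) for QKI and -0.28 (SE 0.080, limma adjusted p 0.0190) for FNDC3A. MBNL1 was -0.58 between the vector libraries and -0.32 between the BCUC-1 libraries. FNDC3B had -0.15 (95% interval -0.36 to 0.068, limma adjusted p 0.184) and HNRNPL -0.0084 (-0.16 to 0.14, limma adjusted p 0.913), and neither passed.

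Several of these calls depended on the libraries and the scaling. Without T24T vector, and likewise without T24T BCUC-1, 2 of 8 members passed, MBNL2 and ADAR, beside 50.6% and 51.7% of all tested genes. In those fits limma's adjusted p of DHX9, MBNL1, QKI and FNDC3A lay between 0.0542 and 0.118. The median of all tested genes was 0.10 higher in T24T, and scaling to equal medians shifted it by -0.12. Relative to that median, MBNL2 stood at 1.68, ADAR at 0.65, DHX9 at 0.16, HNRNPL at -0.11, FNDC3B at -0.25, FNDC3A at -0.38, QKI at -0.40 and MBNL1 at -0.55. With equal medians DHX9 was not called (0.12, limma adjusted p 0.220) and FNDC3B was called lower in T24T (-0.27, limma adjusted p 0.0232), as it was with quantile normalization (-0.26, limma adjusted p 0.0281).

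**Figure D4:**
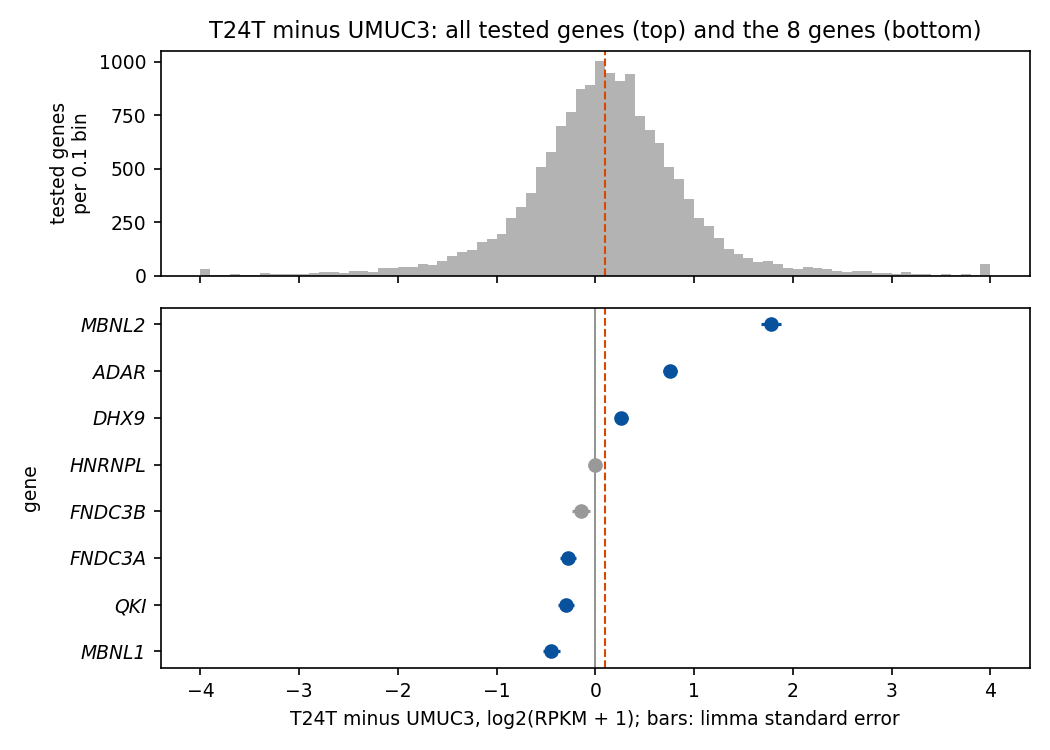
Top, number of tested genes by T24T minus UMUC3 difference on log2(RPKM + 1), with values beyond 4 placed in the end bins; bottom, the same difference for the 8 genes with limma's standard error, blue where called and grey where not. The dashed line is the median of all tested genes at 0.10, and MBNL2 at 1.78 lies farthest out.

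Other genes of circle biology were described from lists. In each list, calls are by limma over all 15415 genes, of which 40.8% were called higher and 29.6% lower in T24T, with a median log2 difference of 0.10. Of the other factors that promote circles, 12 of 14 were tested, with 7 higher and 2 lower in T24T and a median of 0.29. EIF4A3, of the exon junction complex, had 52.1 and 53.7 RPKM in the T24T libraries against 33.1 and 36.3 in those of UMUC3. The splicing factor SRSF1 was lower in T24T, with 187 in both of its libraries and 229 and 217 RPKM in UMUC3. RBM20, a splicing regulator of heart muscle, was lower too, with 0.254 and 0.145 against 1.06 and 1.21. RBM20 entered the test through the UMUC3 libraries alone, so the filter favoured this direction.

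Among paralogs and relatives of the RNA-binding members, 7 of 12 were tested, 3 higher and 2 lower, with a median of 0.058. CELF1, whose product acts against muscleblind proteins on many exons, had a log2 difference of 0.27 (SE 0.072, limma adjusted p 0.0131). DHX36, a helicase of quadruplex RNA, had 0.23, and PTBP2, the neuronal polypyrimidine tract protein gene, -0.59. SF1, a branch point protein with a KH domain like that of QKI, had -0.24.

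Core spliceosome and 3′ end genes were divided, with 5 of 13 higher and 3 lower and a median of 0.020. SNRNP200, the helicase that unwinds U4 and U6, had a log2 difference of 0.94, whereas PRPF8, its partner at the spliceosome's core, had -0.61. CSTF2, of the cleavage stimulation factor, had 0.94 and SLU7, a second-step splicing factor, -0.54.

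Circle turnover genes were also divided, with 4 of 9 tested higher and 3 lower and a median of 0.024, and HRSP12 was not analysed here. The largest difference was at G3BP2, which with UPF1 and G3BP1 belongs to the decay of highly structured RNA. It had 56.8 and 57.3 RPKM in T24T and 21.5 and 20.8 in UMUC3. TNRC6A, the silencing scaffold, had a log2 difference of 0.78, DIS3, the exosome nuclease, -0.39, and POP1, of RNase P and MRP, -0.27.

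Of the genes of circle export and cap-independent translation, 4 of 10 were higher and 2 lower in T24T, with a median of 0.074. IGF2BP1, an RNA-binding protein with a part in the nuclear export of circles, had 9.73 RPKM in both T24T libraries (2098 and 2091 reads). Each UMUC3 library held 7 reads of it. Since IGF2BP1 entered the test through the T24T libraries alone, the filter favoured a difference in this direction. Its log2 difference was 3.38 (SE 0.098, limma adjusted p 1.36e-06). CSE1L, an export receptor, had 0.70. DDX39A, a helicase known for exporting short circles, had -0.62, and METTL3, the catalytic subunit of the m6A writer, -0.34. None of the 51 tested genes of these 5 lists was called for BCUC-1, and the list medians of BCUC-1 minus vector lay between 0.0031 and 0.025 in T24T and between -0.024 and 0.070 in UMUC3, beside -0.013 and 0.026 over all genes.

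**Figure D5:**
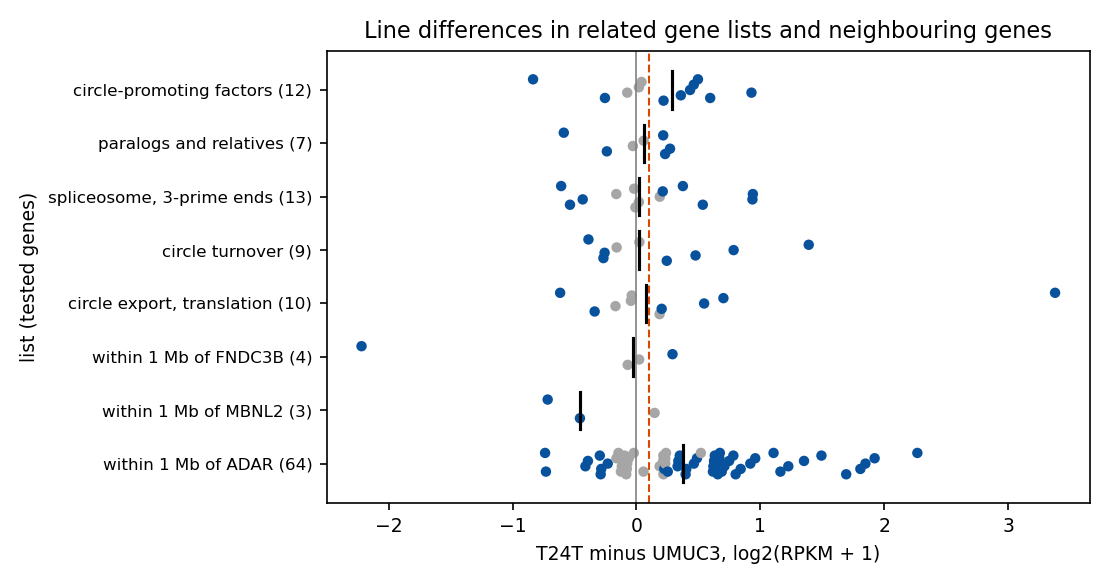
T24T minus UMUC3 difference on log2(RPKM + 1) (horizontal axis) of each tested gene in 5 lists and in 3 sets of neighbours within 1000000 bases, blue where called by limma and grey where not. Black bars are list medians, the dashed line is the median of all genes at 0.10, and IGF2BP1 at 3.38 is the point farthest right.

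The genomic surroundings of FNDC3B showed no shared direction. Of 15 listed genes within 1000000 bases, 4 were tested, with 1 higher and 1 lower in T24T and a median of -0.024. ECT2, a guanine exchange factor of cytokinesis 349017 bases away, had 72.7 and 72.2 RPKM in T24T and 60.0 and 58.1 in UMUC3. NLGN1, a neuronal adhesion gene 994619 bases away, was covered by 3 and 1 reads in the T24T libraries, against 1100 and 768 in those of UMUC3. It entered the test through the UMUC3 libraries alone. Neighbours of MBNL2, a set chosen after its value was seen, did not follow it. Of 3 tested, 0 were higher in T24T and 2 were lower, the importin gene IPO5 (-0.72) and FARP1 (-0.46), while RAP2A, 40102 bases from MBNL2, stood at 0.15 and did not pass.

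The genes most like FNDC3B across the 4 libraries were sought among 7407 genes with a mean of at least 5 RPKM and at least 500 bases. Likeness was the root mean square distance of log2(RPKM + 1) after each gene's own mean was subtracted. The 5 nearest were NDUFA5 (0.0087), CMTM4 (0.0089), ARMCX3 (0.010), AGO2 (0.011) and UBE2Q2 (0.014), against a median distance of 0.23. Since 296 genes lay within 0.05, this near-flat pattern was a common one. FNDC3A lay at 0.080 and HNRNPL, the nearest of the other members, at 0.074.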

How the data were processed

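RNA of 4 libraries was extracted with the RNeasy Mini kit and prepared with standard Illumina methods, per the labels. The deposited table holds RPKM, scaled by the authors per kilobase of the listed exonic length and per 1000000 assigned reads. Its Length column, of another unit (bases), is the exonic length, per the file headers. The submitters' processing notes name Bowtie 0.12.2. What it was used for, and against which build and annotation, is not stated in the labels. Exon coordinates shared a start or end with GENCODE 29 (GRCh38) for 7 of 8 members. RPKM times length came out in whole reads for 100% of genes (tolerance 0.001 reads), which gave the read numbers.

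Columns were assigned by sample title. Members and lists were chosen with earlier results of these data known. limma 3.58.1 (R 4.3.3, with trend, two-sided, Benjamini-Hochberg adjusted p of 0.05) was fitted to log2(RPKM + 1), keeping genes that reached 1 RPKM in 2 or more libraries, with line and treatment as terms. Within a line no test was made. A 2-fold rule and ratios with exact (Clopper-Pearson) intervals were used, and levels carry Poisson intervals. For GC content, the longest transcript of GENCODE 29 was used, and the trend was the median in 20 bins. Named genes were all members, the 2 genes each way with the largest called line difference in each list and near FNDC3B, and the 5 genes nearest to FNDC3B in pattern; single others were added after their values were seen, and some genes of the lists are not reported here. The fit was tested on data simulated in a single draw with a dispersion of 0.005. The BCUC-1 term recovered 10% of 1.5-fold and 68% of 2-fold changes, and the line term 32% and 79%. Of 15215 unchanged genes they called 12 and 37. These shares and counts moved widely with the random draw, and the simulated data held no difference for the other term. They therefore do not set the power of the fit on the real data. Alternatives were limma-voom on the recovered reads, other scalings, floors and pseudocounts, removal of the GC trend, other terms in the model and leaving out each library. Promoter sequences are from RefSeq (GRCh38.p14), which matched 7 of 8 members; QKI was not among them.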

Additional observations from a re-analysis of the deposited data

Results flagged for a closer look

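At 4 genes the BCUC-1 library lay above its vector library in one line and below it in the other. With 1 library per group, none of these differences between the lines was tested. FNDC3A stood at 0.047 in T24T and -0.083 in UMUC3 on log2(RPKM + 1), and MBNL1 at 0.020 and -0.24. MBNL2 stood at -0.057 and 0.074, and HNRNPL at 0.0028 and -0.055. The counting intervals of the ratios in the lines were apart for MBNL1 (0.977 to 1.05 in T24T, 0.815 to 0.869 in UMUC3) and overlapped for the other 3 genes.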

How the results depend on the processing

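For BCUC-1 against vector over both lines, 0 of 8 members were called under each setting. The number of all genes called was 13 with limma-voom, 4 with equal medians, 60 at a floor of 5 RPKM and 1 at pseudocount 0.1. It was 0 under quantile normalization, without a filter, with the GC trend removed and with no replicate block (the line left out of the model). The fit in the report pairs the vector and BCUC-1 libraries by line, which is its replicate block, and without that block 0 members were called too. Values near 0 changed sign: MBNL2 stood at -0.017 with limma-voom, DHX9 at -0.0066 with quantile normalization and FNDC3A at 0.032 with the GC trend removed. In T24T alone FNDC3A was 0.047, MBNL1 0.020, MBNL2 -0.057 and HNRNPL 0.0028. For T24T against UMUC3, 3 of 8 members passed without a filter (MBNL2, ADAR and DHX9), beside 9908 of 32973 genes (30.0%), and between 2 and 6 when each library was left out. In those fits 7797 to 10296 genes were called of 10847 in full, and 6780 of 8830 at a floor of 5 RPKM. HNRNPL changed sign when UMUC3 vector was left out (0.019, with -0.036 when UMUC3 BCUC-1 was left out) and in the BCUC-1 libraries alone (0.021). Within the lines, 0 of the members compared differed under each setting, 8 in each case except at a floor of 5 RPKM in UMUC3, where MBNL2 was left out and 7 remained. The counts of all genes, 90 in T24T and 108 in UMUC3, became 312 and 383 at 1.5-fold, 254 and 280 with a pseudocount of 0.1, 7 and 18 at a floor of 5 RPKM, 0 and 4 on log2(RPM + 1), and 35 and 42 with the GC trend removed. Fewer genes were compared at 5 RPKM, and also with the GC trend removed (11754 and 11377), and the cause of the moves was not tested. Depth limits MBNL2 in UMUC3 most, at 122 and 116 reads.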

Other observations

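Neighbours of the other members were described after the member values were seen, within 1000000 bases on either side. Over all tested genes 40.8% were called higher and 29.6% lower in T24T. Whether neighbouring rows share reads of overlapping genes was not tested. Some tested rows had few reads, such as MIR6737 near ADAR (0 to 7). Near ADAR, 36 of 64 tested genes were higher and 8 lower in T24T by limma, with a median log2 difference of 0.37 beside 0.10 over all tested genes. Among them were the calcium-binding protein gene S100A13 (2.27) and the ephrin ligand gene EFNA1 (1.92), while C1orf43 stood at -0.73 and DPM3 at -0.74. Near HNRNPL, whose own value was -0.0084, 7 of 41 were higher and 23 lower, with a median of -0.28. The protease inhibitor gene SPINT2 was covered by 5954 and 5771 reads in the T24T libraries, against 11 and 8 in those of UMUC3. Near FNDC3A, 5 of 24 were higher and 13 lower, with a median of -0.25 beside -0.28 for FNDC3A itself. Of 6 tested near DHX9, 2 were higher and 1 lower. Near MBNL1, 3 genes were tested, 1 higher and 2 lower, and 0 of the 5 near QKI reached the floor of the test.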
